A study of Arabidopsis thaliana with 22 samples.

Results

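The 150 loci described here are those whose levels followed KNOLLE most closely over 18 arrays of sorted Arabidopsis thaliana root cells, out of 27143 loci measured. KNOLLE (AT1G08560) is listed as SYP111 in the reference gene table. Each locus was read through its transcript model of highest mean level, and its Pearson correlation r was taken with 5 anchor genes. Of the 3559 loci whose highest anchor r was with KNOLLE, the 150 of highest r were kept and are called members below. The other anchors were WER (MYB66), a regulator of non-hair epidermal cells, COBL9 (SHV2), which root hairs need to grow, CASP1, which builds the endodermal Casparian strip, and C/VIF2, taken here as the cortex gene. The levels in those 18 arrays chose the members, so they are given as a description and no test rests on them.

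KNOLLE is the syntaxin of plant cytokinesis. Vesicles carry it to the plane of division, where it acts with its partners KEULE and SNAP33 in the membrane fusion that builds the cell plate inside the phragmoplast, a microtubule array of dividing plant cells. Its transcript accumulates around mitosis, and three-repeat MYB factors (MYB3R) act on this gene and on many other mitotic genes. In a root, dividing cells lie mostly in the meristem near the tip, so a sorted population of epidermal or cortical cells can hold both dividing and non-dividing cells.

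The study asked how the GRAS transcription factor SCL26 bears on the nitrogen response of root cells. It compared Col0 (wild type) with the mutant atscl26, whose allele the header of the authors' deposited table of averages calls atscl26-2. All plants, Col0 included, carried a GFP reporter of either epidermis or cortex, whose driving promoter is not given in the sources used here, and all grew on 30 mM sucrose with nitrate supplied as 0.1 mM KNO3. Treatment lasted 2 h with 5 mM KNO3, against a control that titles and source names call KCl (5 mM) and the protocol describes as fresh plates at 0.1 mM KNO3. The protocol gives 9 days of growth and the source names an age of 12 days. Roots were made into protoplasts, GFP-positive cells were sorted, and RNA was amplified and labelled with Cy3. The 22 arrays form 8 groups, of 3 arrays in 6 of them and of 2 in Col0 cortex KNO3 and in atscl26 epidermis KCl, since the submitters removed 1 array of each for low quality scores. Values are log2 levels. In such bulk samples, fewer cells of a type and less RNA per cell cannot be told apart.

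Several arrays stood apart or went against their labels. The choice of members left out 4 arrays (Col0 epidermis KCl replicate 2, Col0 epidermis KNO3 replicate 3, Col0 cortex KNO3 replicate 1 and atscl26 cortex KNO3 replicate 1), whose median correlation with the other arrays lay between 0.562 and 0.800, against 0.852 to 0.921 for the 18 arrays used. Marker levels of epidermis and cortex placed 7 arrays closer to the cell type that their label does not name. They were Col0 epidermis KCl replicates 1 and 2, atscl26 epidermis KNO3 replicates 2 and 3, atscl26 cortex KCl replicate 3 and atscl26 cortex KNO3 replicates 2 and 3. Not every placement was clear. Cortex and epidermis markers had mean levels of 10.31 and 10.28 in atscl26 cortex KNO3 replicate 2. In Col0 cortex KNO3 replicate 1, not among the 7, these were 9.86 and 9.63. The SCL26 locus (AT4G08250) did not separate the genotype labels, with a range of 7.0 to 11.26 in Col0 and of 7.66 to 9.11 in atscl26. In the authors' deposited table, 6 of 8 average columns equalled the means of the labelled groups. Its Col0 cortex KNO3 average equalled the mean of that group's 2 arrays and atscl26 cortex KCl replicate 1, so that KNOLLE stands at 9.19 in the authors' deposited table and at 8.07 in the labelled group. Its Col0 epidermis KCl average equalled the mean of replicates 1 and 3 and atscl26 epidermis KNO3 replicate 1, which puts KNOLLE at 10.91 in the authors' deposited table against 10.64 in the labelled group. The groups below are those of the labels.

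KNOLLE itself varied strongly between arrays of the same group. In epidermis, KNOLLE stood at 9.44, 10.48 and 12.01 in Col0 KCl, 12.46, 10.22 and 11.89 in Col0 KNO3, 7.25 and 12.18 in atscl26 KCl and 11.28, 11.24 and 10.98 in atscl26 KNO3. In cortex it stood at 9.36, 10.01 and 12.09 in Col0 KCl, 7.35 and 8.79 in Col0 KNO3, 11.43, 10.25 and 11.03 in atscl26 KCl and 8.49, 10.87 and 11.57 in atscl26 KNO3. The lowest of the 18 arrays used was atscl26 epidermis KCl replicate 1 at 7.25, and the other array of that group was among the highest at 12.18. The arrays of atscl26 epidermis KNO3 lay close together, and those of Col0 cortex KNO3 were the lowest group with a mean of 8.07 ± 1.01 (SD, n = 2). In descending order, the group means ± SD of KNOLLE were 11.52 ± 1.16 in Col0 epidermis KNO3, 11.17 ± 0.16 in atscl26 epidermis KNO3, 10.90 ± 0.60 in atscl26 cortex KCl, 10.64 ± 1.29 in Col0 epidermis KCl, 10.49 ± 1.43 in Col0 cortex KCl, 10.31 ± 1.61 in atscl26 cortex KNO3 and 9.72 ± 3.49 in atscl26 epidermis KCl (n = 3 each, n = 2 in the last), with Col0 cortex KNO3 below them. The ranges of each neighbouring pair in that order overlapped. Within groups lay 74.6% of the sum of squares of KNOLLE over the 18 arrays, against a median of 57.2% over all loci. Without atscl26 epidermis KCl replicate 1 these shares were 59.3% and 54.5%. Over all 22 arrays they were 61.8% and 70.8%, so KNOLLE then lay below the median of all loci.

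**Figure D1:**
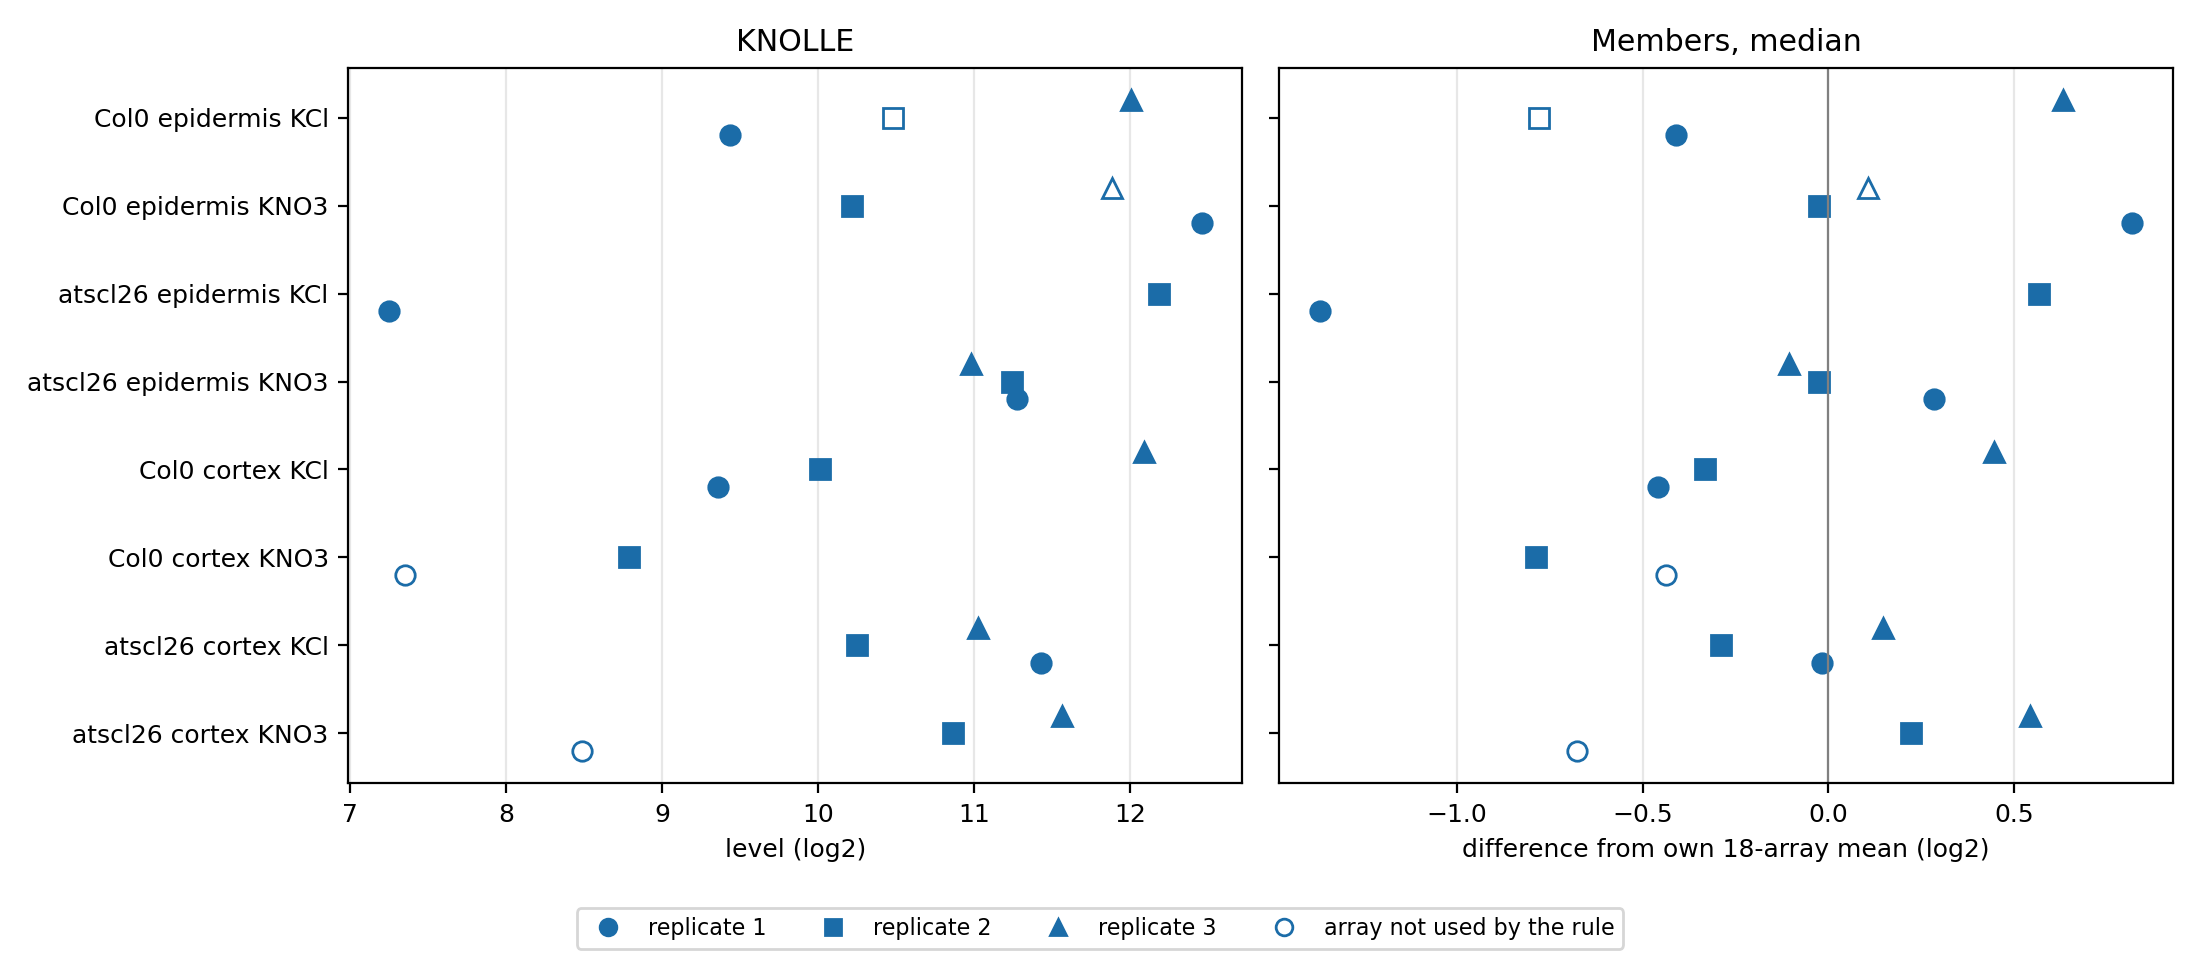
KNOLLE level (log2, left) and the median over the 150 members of each member's difference from its own mean over the 18 arrays used (log2, right), by group. Each point is 1 array, its shape the replicate, and open points are the 4 arrays that the choice of members did not use. Atscl26 epidermis KCl replicate 1 is the lowest filled point on both sides, at 7.25 and -1.37.

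The members' r with KNOLLE ran from 0.666 to 0.898 with a median of 0.715. At the limit, AT1G51730, GPX8 (a glutathione peroxidase) and HLL were just inside at 0.667, 0.667 and 0.666, and AT1G67350, AT5G57410 and AT1G31010 just outside at 0.665, 0.664 and 0.663. The same rank fell at r = 0.844 for WER, 0.862 for C/VIF2, 0.718 for CASP1 and 0.520 for COBL9. The limit was thus lower for KNOLLE than for WER, C/VIF2 and CASP1. The loci whose highest anchor r was with those anchors numbered 7285, 11744 and 3038, against 3559 for KNOLLE and 1512 for COBL9. CASP1 thus had fewer such loci than KNOLLE but a higher limit. Whether the number of loci bears on the limit was not tested. Between members, r had a median of 0.564 over 11175 pairs. The reference table held 149 of the members and gave a symbol to 68, and the rest are named by locus only. Mean levels over the 22 arrays ran from 6.69 to 13.90 with a median of 10.16, against 8.95 over all loci, and the SD over the 18 arrays had a median of 0.77 against 0.59.

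A group of 8 members was picked by known roles in mitosis and cytokinesis, with r of 0.672 to 0.828. Roles were assigned by hand to part of the members only, so others may have such roles too. MAP65-3 (PLE in the reference) crosslinks the antiparallel microtubules of the phragmoplast, and CYCB2;4 and CYCB1;2 (CYC1BAT) are mitotic cyclins. AUR2 is an Aurora kinase, CDC20.1 an activator of the anaphase-promoting complex, MAD1 a spindle checkpoint protein, ATSMC2 a condensin subunit, and PHIP1 an interactor of the cell plate dynamin phragmoplastin. In epidermis, MAP65-3 stood at 6.63, 7.44 and 7.39 in Col0 KCl, 9.28, 6.49 and 9.83 in Col0 KNO3, 6.34 and 9.64 in atscl26 KCl and 7.36, 8.26 and 7.82 in atscl26 KNO3. The cortex levels were 6.45, 6.43 and 9.27 in Col0 KCl, 6.32 and 6.68 in Col0 KNO3, 8.94, 6.30 and 8.62 in atscl26 KCl and 5.74, 6.14 and 8.03 in atscl26 KNO3. All 5 arrays at or above 8.94 were ones where KNOLLE stood at 11.43 or more, the groups overlapped, and atscl26 epidermis KNO3 was the only group with no array below 7. In epidermis, CYCB2;4 stood at 6.05, 8.64 and 10.24 in Col0 KCl, 10.32, 9.44 and 6.62 in Col0 KNO3, 6.52 and 10.53 in atscl26 KCl and 8.94, 8.58 and 8.81 in atscl26 KNO3. Its cortex levels were 6.59, 6.83 and 9.73 in Col0 KCl, 7.52 and 5.79 in Col0 KNO3, 8.72, 6.20 and 8.27 in atscl26 KCl and 6.20, 7.16 and 8.69 in atscl26 KNO3. Its r with KNOLLE was 0.828, and every group of 3 arrays but atscl26 epidermis KNO3 spanned over 1.5 log2 units. In Col0 epidermis KNO3 replicate 3, not used in the choice, CYCB2;4 was low at 6.62 while KNOLLE was high at 11.89.

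A group of 7 members acts in DNA replication and chromatin assembly, with r of 0.679 to 0.842. TIL1 is the catalytic subunit of DNA polymerase epsilon, MCM3 a subunit of the replicative helicase, and RFC4 (EMB1968) and RFC3 (EMB2775) are subunits of the clamp loader. POLD3 belongs to DNA polymerase delta, RPA70B binds single-stranded DNA, and FAS2 is a subunit of the histone chaperone CAF-1. In epidermis, TIL1 stood at 9.46, 8.15 and 11.35 in Col0 KCl, 11.40, 9.97 and 11.26 in Col0 KNO3, 9.19 and 11.12 in atscl26 KCl and 10.61, 10.31 and 10.43 in atscl26 KNO3. In cortex the levels were 10.35, 10.40 and 11.12 in Col0 KCl, 9.82 and 9.08 in Col0 KNO3, 10.38, 11.22 and 10.78 in atscl26 KCl and 7.78, 10.94 and 11.06 in atscl26 KNO3. The lowest levels were in 2 of the arrays not used in the choice, Col0 epidermis KCl replicate 2 and atscl26 cortex KNO3 replicate 1, and the groups overlapped. MCM3 had r = 0.689, and its lowest level was 7.64 in atscl26 cortex KCl replicate 2, an array where KNOLLE stood at 10.25. CYCD4;1, a D-type cyclin of the entry into the cell cycle, had r = 0.743.

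Most members were not placed in these groups, and some of the other named ones were grouped by role after the members were known. There were 5 of the nuclear pore and import (GLE1, LNO1, MOS7 and HOS1 of the pore or its mRNA export side, and the importin MOS6), with r of 0.674 to 0.745. The mitochondrial group held 4, namely the import factor TIM8 and the organellar ribosomal proteins MRPL11, HLL and RPS19, with r of 0.666 to 0.860. Chloroplast proteins numbered 5 (the superoxide dismutase CSD2, the acetyl-CoA carboxylase subunit CAC2, HCF208, the protease subunit CLPR4 and the RNA-binding CP33), with r of 0.667 to 0.812. RNA processing counted 4 (PRL1, LSM1A, the lariat-debranching DBR1 and CLPS3), with r of 0.681 to 0.803. The enzymes AK-LYS1, AK-HSDH I and MS3, of lysine, threonine and methionine synthesis, had r of 0.692 to 0.768.

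The 10 members of highest r were AT1G11905 (0.898), AT1G70190 (0.865), TIM8 (0.860), AT3G52170 (0.852), TIL1 (0.842), AT2G03780 (0.828), CYCB2;4 (0.828), AT3G12170 (0.820), AT1G29320 (0.819) and CSD2 (0.812). Only TIL1 and CYCB2;4 of these stand in the cell division lists. In epidermis, TIM8 stood at 11.72, 12.12 and 13.91 in Col0 KCl, 13.23, 12.28 and 13.14 in Col0 KNO3, 10.69 and 13.54 in atscl26 KCl and 13.30, 11.89 and 12.32 in atscl26 KNO3. The cortex arrays gave 11.86, 12.08 and 12.94 in Col0 KCl, 13.29 and 10.76 in Col0 KNO3, 12.33, 11.59 and 12.57 in atscl26 KCl and 13.35, 13.41 and 12.82 in atscl26 KNO3. It was lowest of the 18 arrays in atscl26 epidermis KCl replicate 1 at 10.69 and next lowest in Col0 cortex KNO3 replicate 2 at 10.76, the same arrays that were lowest for KNOLLE.

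A single array, atscl26 epidermis KCl replicate 1, weighed more on this set than any other. Its median correlation with the other arrays, 0.852, was the lowest of the 18 used. Its median log2 level, 8.78, was the lowest of any array, against a highest of 9.04. Whether these features bear on the members' levels in that array was not tested. In atscl26 epidermis KCl replicate 1, where KNOLLE stood at 7.25 against 8.79 in the next lowest of the 18, all 150 members lay below their own 18-array mean, with a median deviation of -1.37 and a range of -4.45 to -0.10. Of all loci, 43.7% lay below their mean there. For 84 members (56.0%) it was the array of lowest level, against 7.44% of all loci. Col0 cortex KNO3 replicate 2 came next with 28 members (18.7%), against 5.30% of all loci. The highest level fell in Col0 epidermis KNO3 replicate 1 for 56 members, against 7.76% of all loci. It fell in Col0 epidermis KCl replicate 3 for 40, against 7.03% of all loci. AT2G06000, for example, stood at 6.89 in atscl26 epidermis KCl replicate 1 and between 10.93 and 12.35 in the other 17 arrays, and its r was 0.680 with that array and 0.311 without it. CLPR4 stood at 6.96 there against a next lowest level of 9.86, with r of 0.673 and 0.314.

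**Figure D2:**
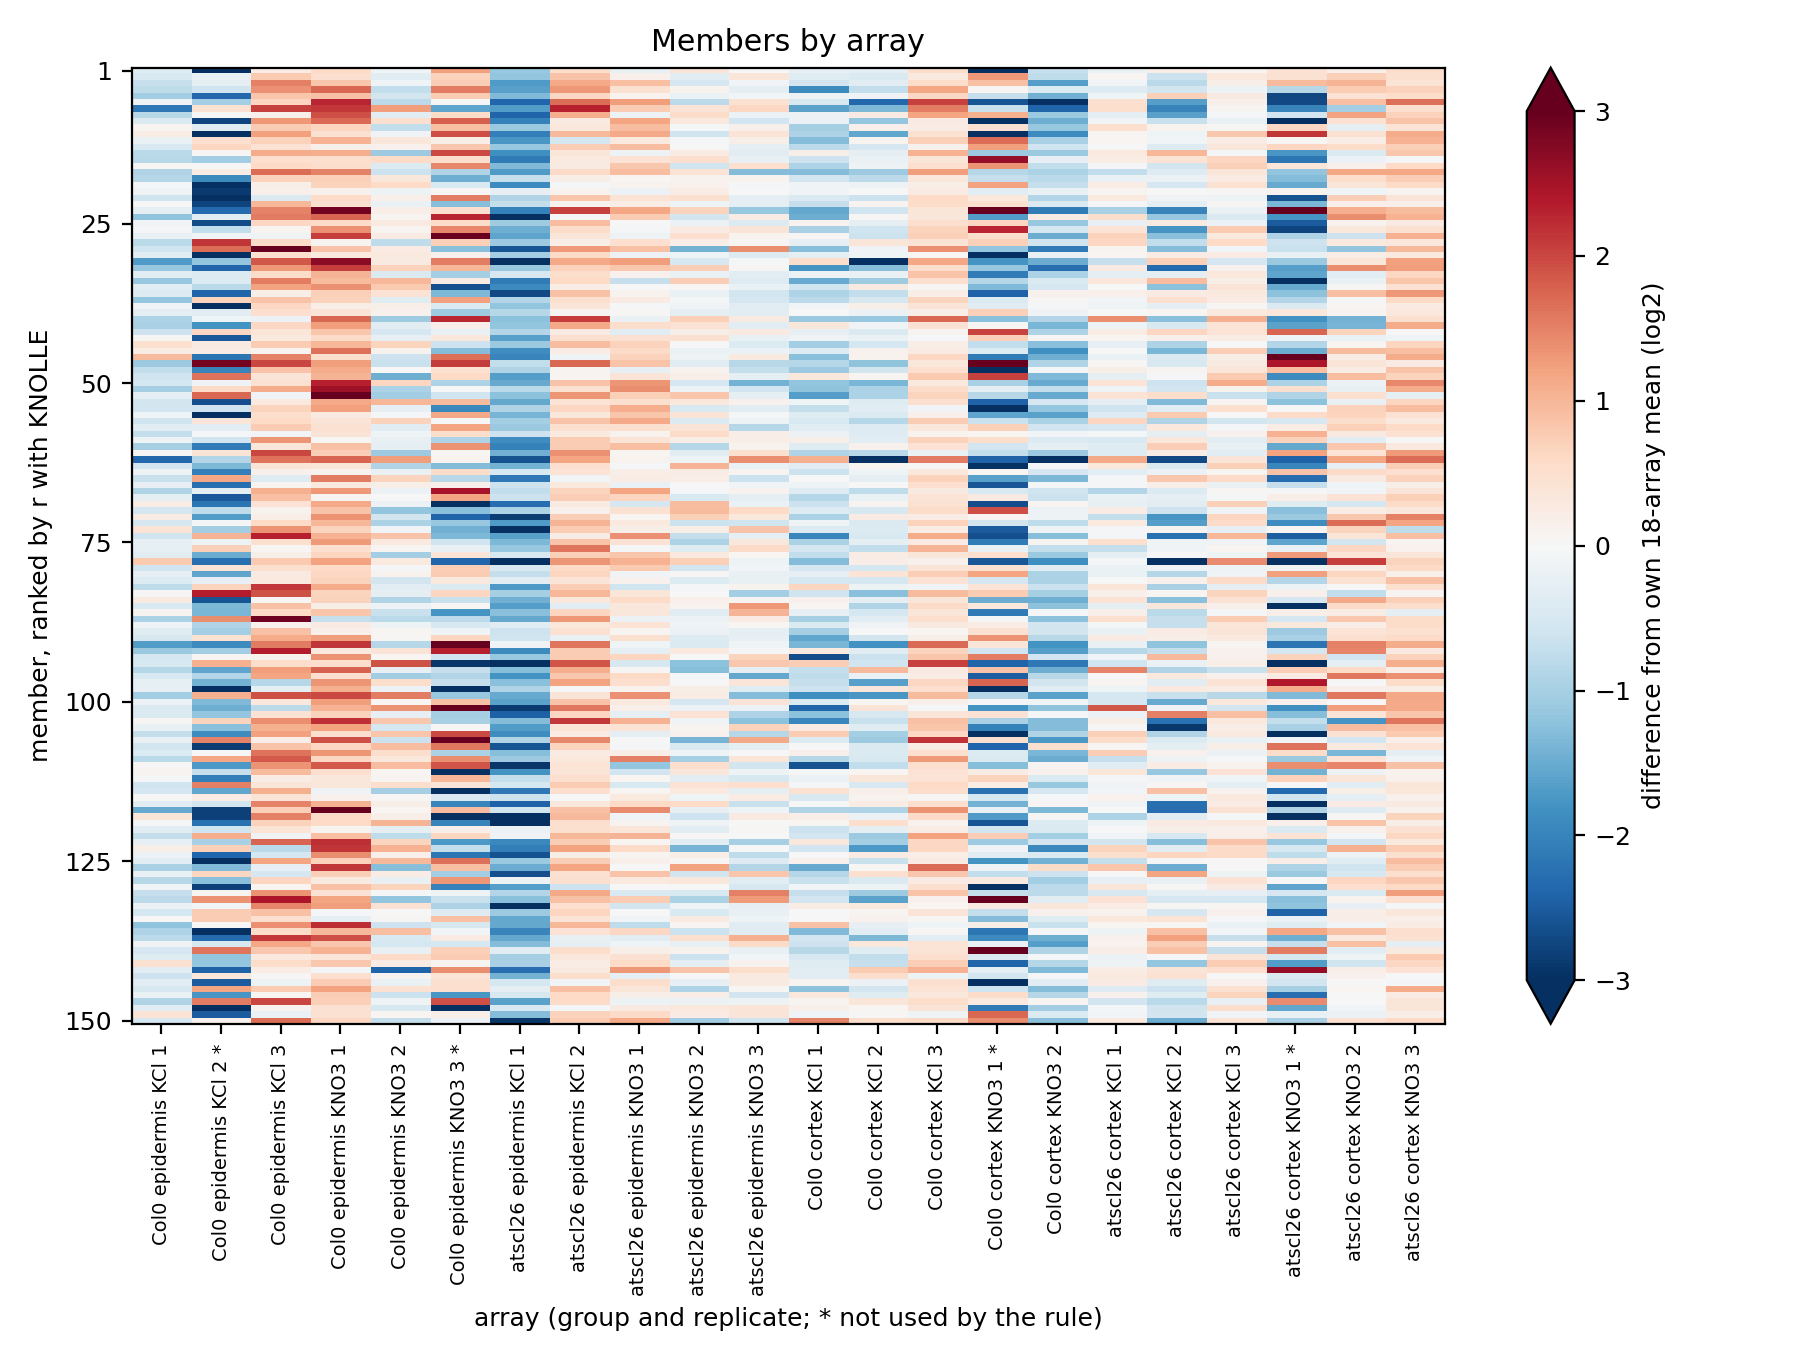
Each row is 1 of the 150 members, ranked by r with KNOLLE, and each column 1 of the 22 arrays by group and replicate. Colour is the log2 difference from the member's own 18-array mean, cut at 3 in either direction, and an asterisk marks the 4 arrays not used in the choice. The column of atscl26 epidermis KCl replicate 1 is blue in all 150 rows.

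Without that array, 25 of the 150 loci (16.7%) were still among the 150 of highest r. Leaving out any other single array kept between 100 and 146. Of the 125 loci that dropped out, 25 then had their highest r with WER, and the other 100 fell below the new limit of 0.760. The members' median r with KNOLLE was 0.653 over the 17 arrays, with 128 members over 0.5, and r was higher without the array than with it for 28 members. The 25 loci common to both choices included MAP65-3 (r = 0.747 with the array, 0.785 without it), CYCB2;4 (0.828 and 0.887), CDC20.1 (0.681 and 0.799), TIL1 (0.842 and 0.800), RFC3 (EMB2775, 0.762 and 0.822), TIM8 (0.860 and 0.823) and CSD2 (0.812 and 0.766). AT3G44050, which has no symbol in the reference, had r of 0.700 with the array and 0.894 without it.

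**Figure D3:**
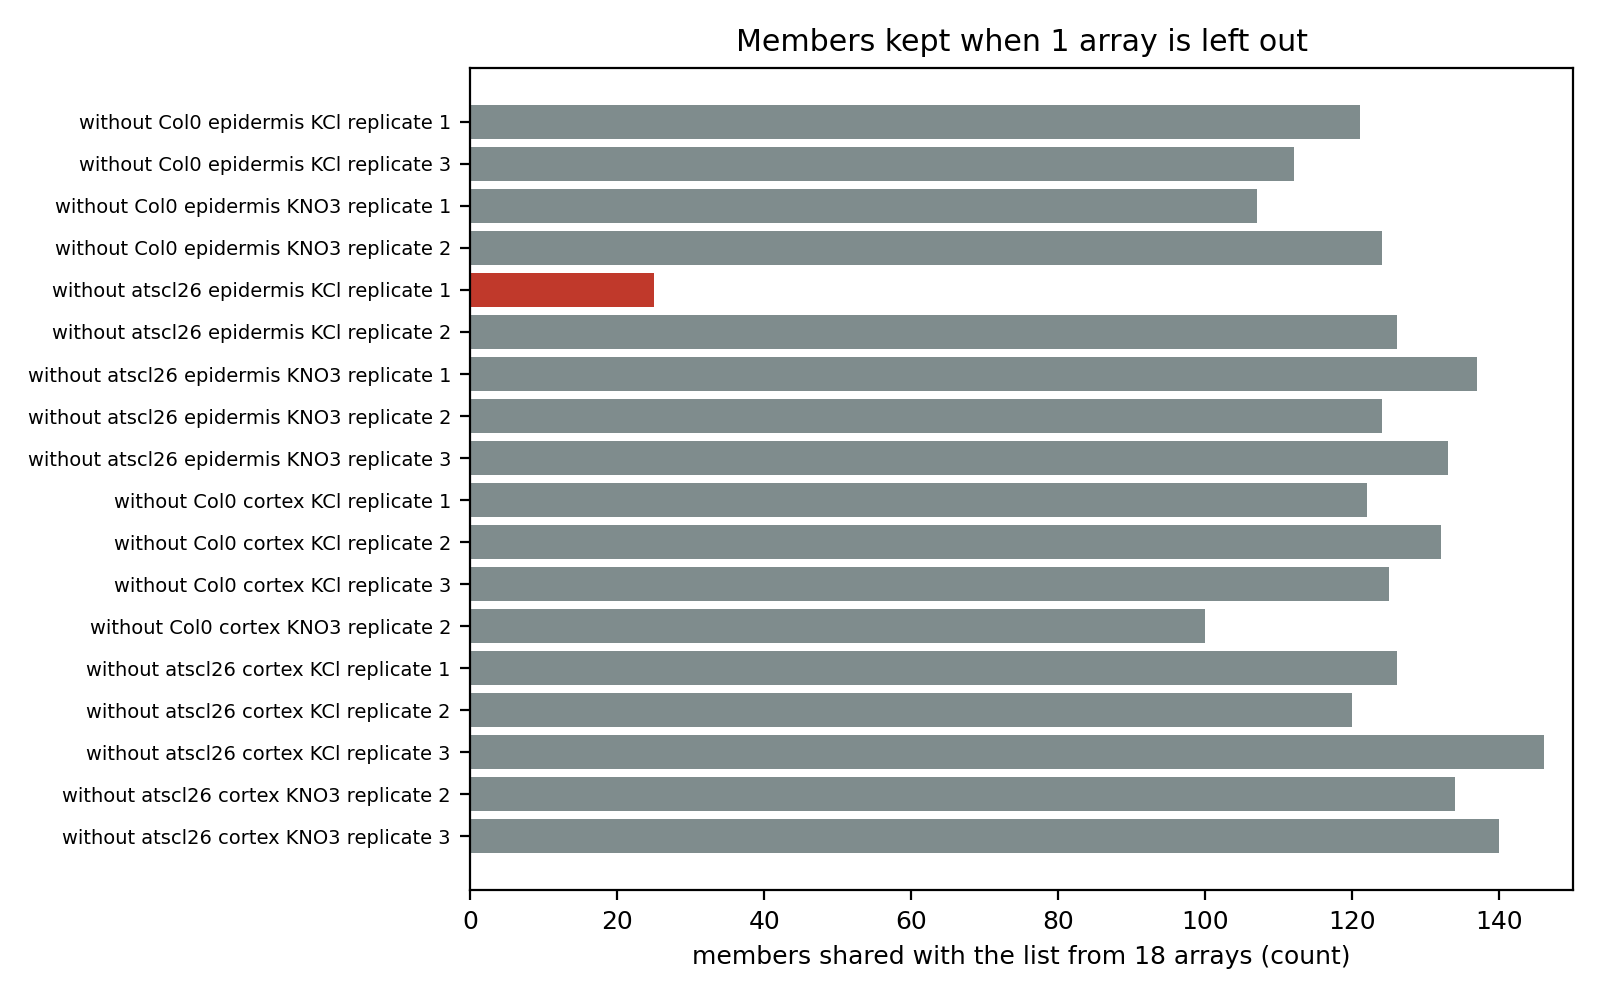
Number of the 150 members kept when the choice is repeated without 1 of the 18 arrays; each bar is 1 array left out and starts at 0. The bar for atscl26 epidermis KCl replicate 1 ends at 25, and the others lie between 100 and 146.

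Correlations within groups were also taken, after the mean of each group had been subtracted. Over the 18 arrays the members' within-group r with KNOLLE had a median of 0.788, and over the 17 arrays 0.682. All these values were among those that chose the members, so a high r is built in. A median of 65.6% of a member's sum of squares over the 18 arrays lay within groups, against 57.2% over all loci. Over the 17 arrays these medians were 55.8% and 54.5%, and over all 22 arrays 73.0% and 70.8%.

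The correlations with KNOLLE did not use 4 arrays, although all 22 set which transcript model stood for a locus, and the deviations below are from the 18-array means. These arrays are 1 from each of 4 groups, and so no replicates of each other. In Col0 epidermis KCl replicate 2, where KNOLLE deviated from its 18-array mean by -0.21, 103 members (68.7%) lay on the same side of their mean as KNOLLE, against 47.1% of all loci. In Col0 epidermis KNO3 replicate 3, with KNOLLE 1.19 above its mean, 84 members (56.0%) were on its side against 59.1% of all loci. In Col0 cortex KNO3 replicate 1, where KNOLLE deviated by -3.34, 92 members (61.3%) were on its side against 39.9%, and in atscl26 cortex KNO3 replicate 1, where it deviated by -2.21, 102 members (68.0%) against 39.1%. KNOLLE lay below its mean in 3 of these 4 arrays. Members lay below their own means more often than all loci did in each of the 4, also in Col0 epidermis KNO3 replicate 3, where KNOLLE was high and 66 members (44.0%) lay below against 40.9% of all loci. Lower levels of the members in these arrays and a following of KNOLLE therefore cannot be told apart here. Repeating the choice over all 22 arrays kept 45 of the 150 loci.

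Other transcript models of a locus give a second reading where the array has them. The 26 members with more than 1 model had 35 further models, whose r with KNOLLE had a median of 0.577 and a range of -0.35 to 0.75. Of these, 12 had r over 0.9 with the model used and may share probes with it, 6 reached the limit of 0.666, and 11 had r under 0.3. The second model of AT1G11905, the member of highest r, had r = -0.35, and the further models of FAS2 had r = 0.680 and 0.634, both with r over 0.9 to the model used. CYCD4;1 had 1 further model at 0.628 and another at -0.23.

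Cell division genes listed by role gave a different view of the same arrays. The 7 lists of cell division and root meristem genes held 168 loci besides KNOLLE, of which 10 (5.95%) were members, against 0.553% of all loci. The highest anchor r was with KNOLLE for 64 of them (38.1%, against 13.1% of all loci), and 134 (79.8%) had r above 0, against 39.9%. Their median r was 0.28, against -0.08 over all loci. Without atscl26 epidermis KCl replicate 1 the median of the 168 was 0.41, whereas the members' median was lower without it. The members were chosen by r over arrays that include this one, which favours such a fall, and nothing is read from the contrast.

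By list, 3 of 26 spindle, kinetochore and chromosome segregation genes were members (AUR2, CDC20.1 and MAD1), with a list median r of 0.41, and the kinesin ATK5 came next at 0.65. The member ATSMC2 was left out of that list, because the reference gives the symbol SMC2 to another locus. DNA replication and S phase gave 3 of 35 (TIL1, MCM3 and FAS2), a median of 0.36 and 33 genes with r above 0, with the helicase subunit MCM7 (PRL) at 0.61 and the ribonucleotide reductase subunit RNR2A lowest at -0.29. The mitotic cyclins, kinases and inhibitors gave 2 of 31 (CYCB2;4 and CYCB1;2) and a median of 0.30, with the mitotic kinase CDKB1;2 at 0.58 and the inhibitor KRP1 (ICK1) at -0.50. Cytokinesis and phragmoplast gave 1 of 38 (MAP65-3) and a median of 0.12. There KNOLLE's own partners KEULE (KEU) and SNAP33 had r of 0.35 and 0.31, which were -0.01 and 0.05 without that 1 array, and the phragmoplast regulators RANGAP1, ANP2 (NP2) and ANP3 (NP3) had 0.68, 0.63 and 0.62; RANGAP1 had a higher r with WER and so is no member. The dynamin DRP1A (DL1) had -0.40 and the microtubule regulator MOR1 -0.54.

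The cell cycle transcription factors had no member among 16 and a median r of 0.19, from E2FA (E2F3), an activator of S phase genes, at 0.62 to the repressor MYB3R3 at -0.56. G1 cyclins had 1 member of 13, CYCD4;1, and a median of 0.07. Root meristem regulators had none of 9 and a median of -0.05, with the stem cell factor WOX5 at -0.28 and PLT1 at 0.32. Of the 34 markers of epidermis, cortex, endodermis, stele and root cap, none was a member, and all 9 endodermis markers had r below 0.

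In the array that weighed most on the members, the listed genes lay on both sides of their means. Of the 158 that are no members, 79 lay below their own mean there (against 43.7% of all loci), with a median deviation of 0.00. The lowest level fell there for 14 of the 158, against 7.44% of all loci. The 10 listed genes that are members were left out of these counts, and all of them lay below their means there. The mitotic cyclins CYCB2;1 and CYCB2;3 lay 3.20 and 3.01 above their means, the cyclosome activator CCS52B (FZR3) 3.02, the meristem factor PLT2 4.02, the cellulose synthase-like CSLD5 of the cell plate 2.37 and CYCB1;1 2.05. The deviation of WOX5 there was -2.49, that of the Aurora kinase AUR3 -2.45 and that of the replication factor CDC45 -2.40.

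**Figure D4:**
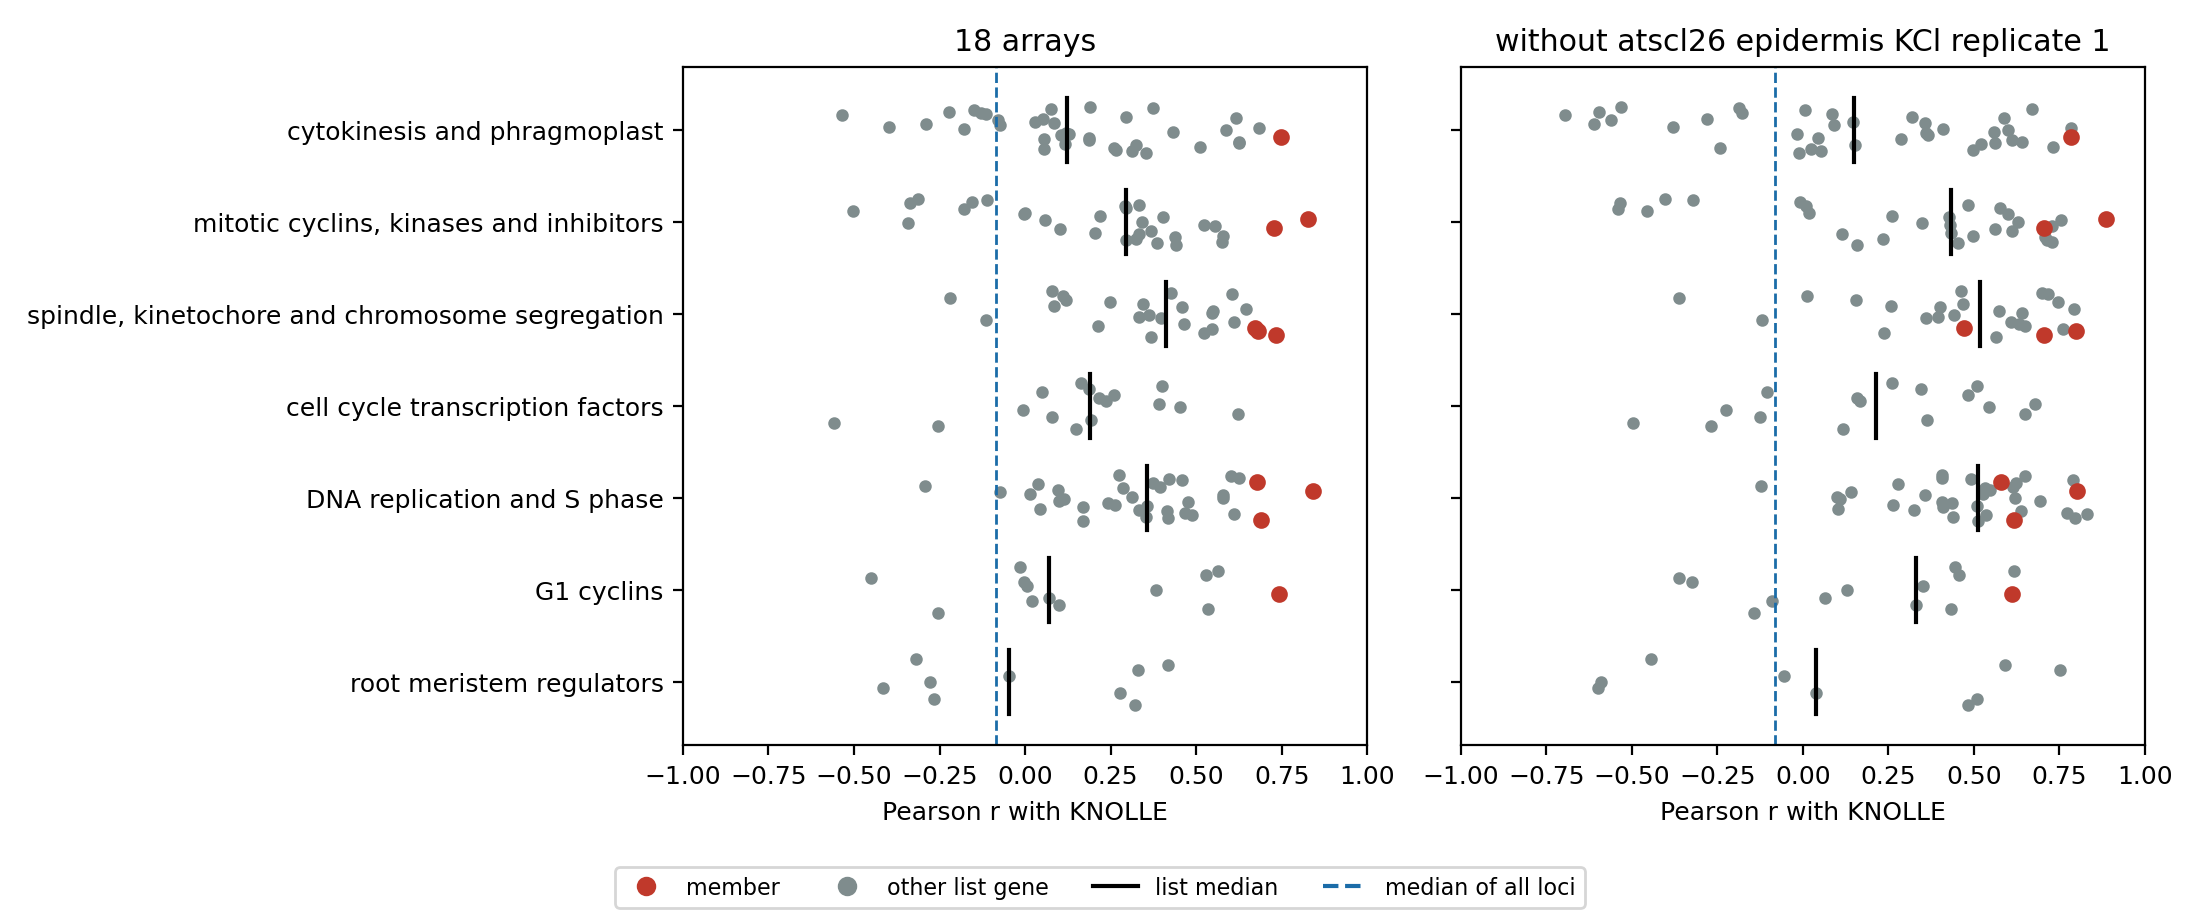
Pearson r with KNOLLE of each gene in the 7 lists, over the 18 arrays (left) and without atscl26 epidermis KCl replicate 1 (right). Red points are members, grey points other list genes, black bars list medians and the dashed line the median of all loci (-0.08 on both sides). The median of the DNA replication list is 0.36 on the left and 0.51 on the right.

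Differences between groups were fitted with limma over all 31524 transcript models. No member passed an adjusted p of 0.05 (Benjamini-Hochberg) in any of the 13 comparisons, and neither did KNOLLE. Over all models the share past that threshold was 0% in 12 comparisons and 0.00317% (1 model) in the average cell type effect. Beside each count of members below stands the share of all models with an unadjusted p under 0.05. Since the members were chosen to follow KNOLLE over 18 of these 22 arrays, the direction of their median tends to be that of KNOLLE by choice, and nothing is read from it.

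Nitrate in Col0 epidermis gave KNOLLE a difference (KNO3 minus KCl) of 0.88 ± 1.09 (SE, adjusted p = 0.979), and the members a median of 0.39 with 102 positive. Unadjusted p was under 0.05 for 10 members (5.43% of all models). The smallest p among positive differences were those of AT2G44820 at 1.99 ± 0.71 and RFC4 (EMB1968) at 3.0 ± 1.08 (adjusted p = 0.909 for both), and among negative ones that of AT1G21440 at -1.89 ± 0.82. CDC20.1 differed by 2.63 ± 0.98 and MAD1 by 2.21 ± 0.95. With arrays weighted by limma, KNOLLE differed by -0.18 and AT1G21440 passed the threshold (-3.22 ± 0.73, adjusted p = 0.036). Without the 7 arrays whose markers go against their label, which leaves only replicate 3 in Col0 epidermis KCl, KNOLLE differed by -0.48. Array weights called 519 of all models (1.65%) in this comparison. KNOLLE differed by 0.28 without Col0 epidermis KCl replicate 1 and by 1.56 without replicate 3 of that group, and the members' median was 0.09 without Col0 epidermis KNO3 replicate 1 and 0.78 without Col0 epidermis KCl replicate 3. Of other cell types, all 9 endodermis markers, 8 of 9 stele markers and both cortex markers were negative, with medians of -1.09, -0.83 and -2.60, and their part was not tested. RFC4 is an example of how 1 array can widen such a difference, since it read 11.06, 5.99 and 11.21 under KCl and 12.26, 11.79 and 13.19 under KNO3. The groups did not overlap, but the 5.99 is from Col0 epidermis KCl replicate 2 and the 13.19 from Col0 epidermis KNO3 replicate 3, both low-correlation arrays. The remaining arrays, at 11.06 and 11.21 against 12.26 and 11.79, did not overlap either.

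In Col0 cortex, KNOLLE differed by -2.42 ± 1.21 (adjusted p = 0.896), and its 2 KNO3 arrays at 7.35 and 8.79 lay below all 3 KCl arrays at 9.36, 10.01 and 12.09. The members' median was -0.48 with 112 negative, and 6 had an unadjusted p under 0.05 (5.08% of all models). AT3G52960 differed by -1.93 ± 0.73 and RFC3 (EMB2775) by -1.69 ± 0.67, and in the other direction AT5G37290 by 2.88 ± 1.22 and PRL1 by 1.34 ± 0.82 (adjusted p = 0.896 for each). MCM3 differed by -1.90 ± 0.92 and CYCB1;2 (CYC1BAT) by -2.55 ± 1.58. Without Col0 cortex KNO3 replicate 2, which leaves that group 1 low-correlation array, 4 members (2.67%) and 884 of all models (2.80%) passed the threshold in this comparison. The members' median was -0.12 without Col0 cortex KCl replicate 3 and -0.66 without Col0 cortex KNO3 replicate 1. Marker medians in the same comparison were 1.22 for endodermis (6 of 9 positive), 0.85 for stele (8 of 9), 0.90 for root cap (4 of 4), 0.43 for epidermis (9 of 10) and -1.31 for the 2 cortex markers, both negative, and their part in the members' differences was not tested.

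In atscl26 epidermis KNOLLE differed by 1.45 ± 1.21 (adjusted p = 1.00), the members' median was 0.46 with 125 positive, and no member had an unadjusted p under 0.05 (3.24% of all models). Single arrays decided these values. Without atscl26 epidermis KCl replicate 1 the difference of KNOLLE was -1.02 and the members' median -0.52, and without replicate 2 of that group they were 3.92 and 1.51. Both cortex markers (median 2.89) and all 9 endodermis markers (median 0.95) were positive in that comparison, and their part was not tested. In atscl26 cortex KNOLLE differed by -0.60 ± 1.09 (adjusted p = 1.00), the median was 0.11 with 83 positive, and again no member had an unadjusted p under 0.05 (2.72% of all models). Without atscl26 cortex KNO3 replicate 1, KNOLLE differed by 0.31 there. The smallest p among positive differences in atscl26 cortex were those of AT3G60660 at 3.01 ± 1.44 and CYCD4;1 at 1.76 ± 0.92. Among negative ones they were those of PRL1 at -1.22 ± 0.73 and ATSMC2 at -1.44 ± 0.95.

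The genotype effect (atscl26 minus Col0) was read in each cell type and treatment. In cortex under KNO3, KNOLLE differed by 2.23 ± 1.21 (adjusted p = 0.882), the members' median was 0.64 with 120 positive, and 13 members had an unadjusted p under 0.05 (6.15% of all models). This comparison shares the Col0 cortex KNO3 arrays with the nitrate effect in Col0 cortex. The smallest adjusted p of any member in the study was found here, for AT3G21465 (4.34 ± 1.13, adjusted p = 0.599), followed by AT5G23535 (2.75 ± 0.81) and CYCD4;1 (3.41 ± 1.03, adjusted p = 0.599 for both). In epidermis, AT3G21465 stood at 11.84, 8.57 and 12.85 in Col0 KCl, 12.07, 11.50 and 13.55 in Col0 KNO3, 9.58 and 12.59 in atscl26 KCl and 12.75, 11.03 and 12.03 in atscl26 KNO3. Cortex arrays read 10.69, 10.06 and 12.07 in Col0 KCl, 7.33 and 9.71 in Col0 KNO3, 11.67, 11.50 and 12.43 in atscl26 KCl and 13.77, 12.08 and 12.74 in atscl26 KNO3. Its 3 atscl26 cortex KNO3 arrays lay above both Col0 arrays, of which the lower, at 7.33, is a low-correlation array, as is the highest mutant array at 13.77.

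In epidermis, CYCD4;1 stood at 9.54, 6.38 and 10.07 in Col0 KCl, 9.10, 7.96 and 10.23 in Col0 KNO3, 6.59 and 8.48 in atscl26 KCl and 9.27, 8.44 and 8.86 in atscl26 KNO3. The levels in cortex were 7.34, 8.69 and 9.21 in Col0 KCl, 6.45 and 7.11 in Col0 KNO3, 8.38, 8.15 and 8.77 in atscl26 KCl and 12.06, 8.81 and 9.70 in atscl26 KNO3. Here too the cortex KNO3 groups did not overlap, and the highest level of all, 12.06, was in atscl26 cortex KNO3 replicate 1, a low-correlation array. PRL1 differed by -1.99 ± 0.82 (adjusted p = 0.750) and AT5G37290 by -2.42 ± 1.22 in that comparison. Without Col0 cortex KNO3 replicate 2, 4 members (2.67%) and 660 of all models (2.09%) passed the threshold, the members being AT3G21465, GLE1, AT3G52960 and, with a negative difference, AT5G37290. The members' median was 0.98 without atscl26 cortex KNO3 replicate 1. All 9 stele markers were negative (median -0.68), as were 7 of 9 endodermis markers (median -1.05), while 8 of 10 epidermis markers were positive (median 0.72), and their part was not tested.

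In the other settings the genotype differences of KNOLLE were -0.93 ± 1.21 in epidermis under KCl, -0.35 ± 1.09 in epidermis under KNO3 and 0.42 ± 1.09 in cortex under KCl (adjusted p = 0.861, 0.958 and 1.00). Each changed sign when 1 array was left out, with ranges of -3.39 to 1.54, -1.0 to 0.12 and -0.15 to 1.22. Members with an unadjusted p under 0.05 numbered 2 in epidermis under KCl (4.51% of all models), ATJ6 at -1.47 ± 0.68 and CLPR4 at -1.88 ± 0.83. Epidermis under KNO3 also had 2 (5.18% of all models), AT1G48360 at -1.96 ± 0.88 and AT3G53320 at -1.61 ± 0.76, and cortex under KCl none (1.30% of all models). The members' medians were -0.27, -0.22 and 0.04.

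**Figure D5:**
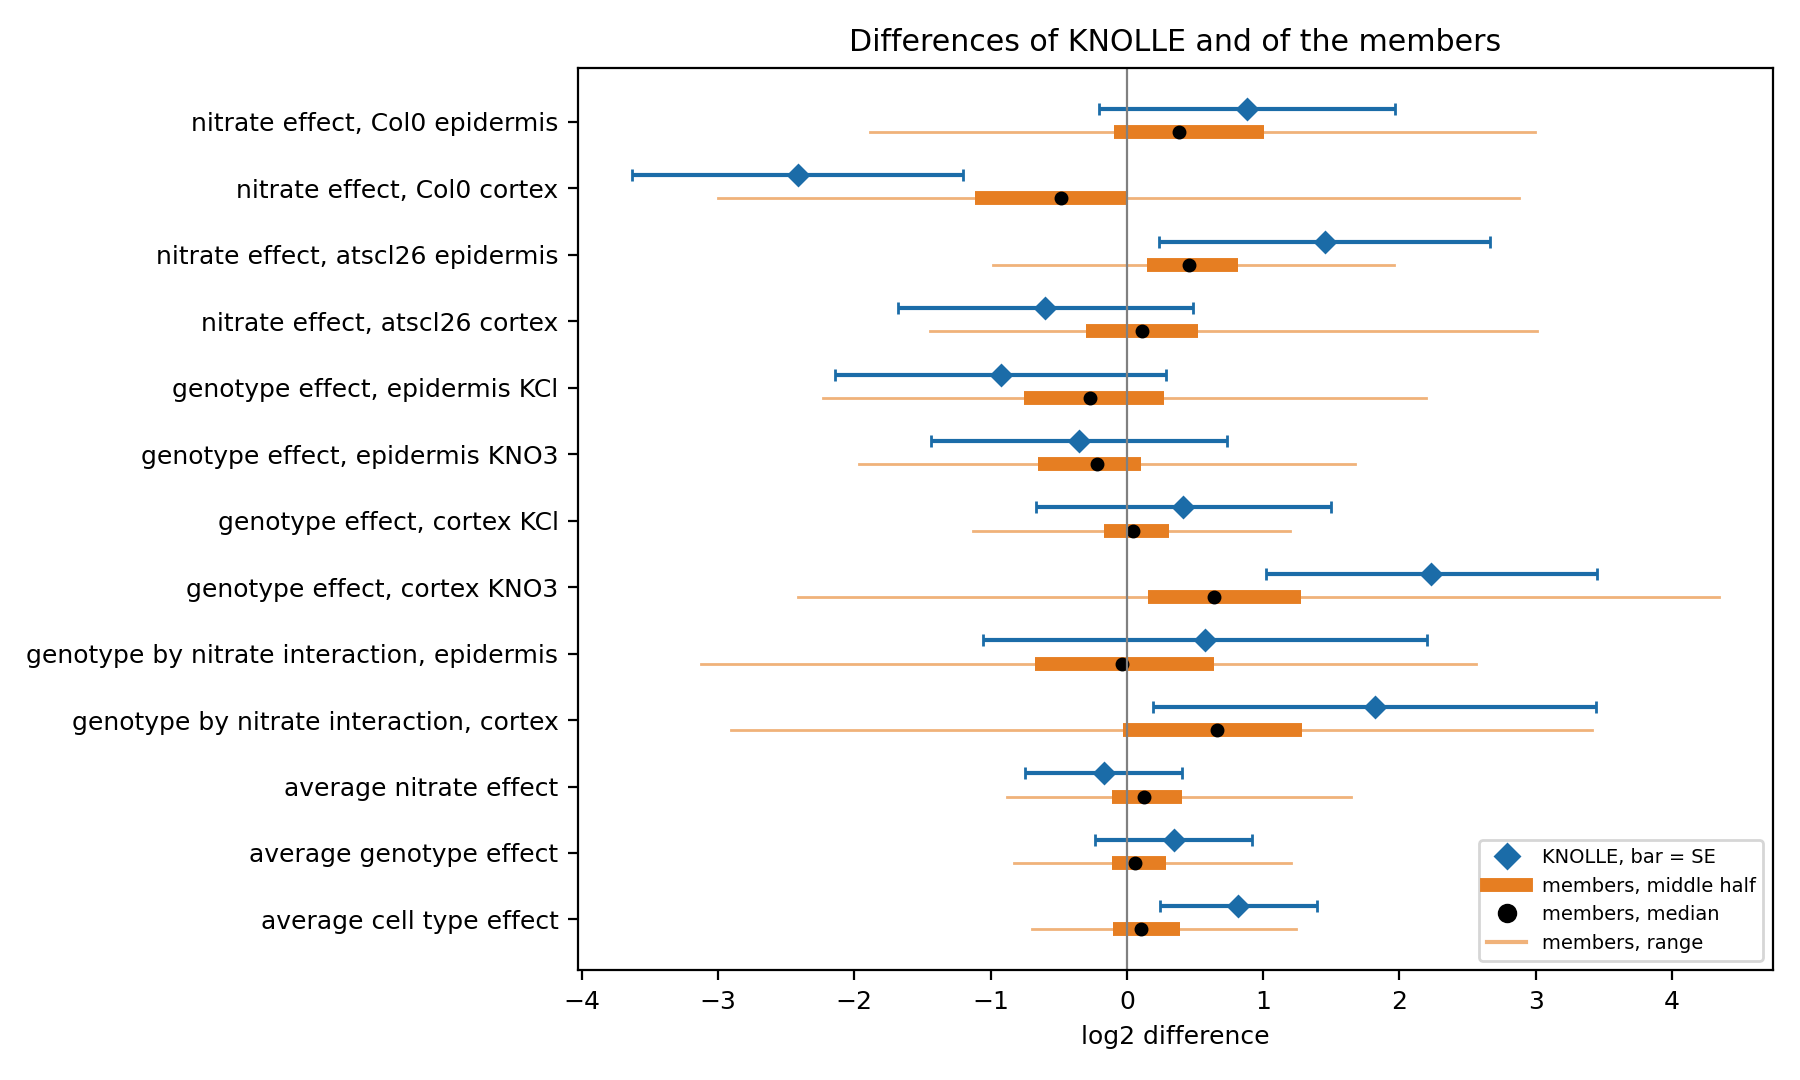
Log2 difference of KNOLLE (diamonds, bar = SE) and of the 150 members (black point, median; thick bar, from the lower to the upper quartile; thin line, range) in the 13 comparisons. Every range of the members includes 0, and the largest difference of KNOLLE from 0 is -2.42 in the nitrate effect of Col0 cortex.

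The genotype by nitrate interaction of KNOLLE was 0.57 ± 1.63 in epidermis and 1.82 ± 1.63 in cortex (adjusted p = 1.00 for both). In epidermis the members' median was -0.04 with 72 positive and none had an unadjusted p under 0.05 (6.14% of all models), and without atscl26 epidermis KCl replicate 1 the interaction of KNOLLE was -1.90. In cortex the median was 0.66 with 111 positive, and 6 had an unadjusted p under 0.05 (2.49% of all models), among them CYCD4;1 at 3.39 ± 1.38, MCM3 at 3.07 ± 1.23 and PRL1 at -2.57 ± 1.10. The interaction of KNOLLE in cortex was 1.02 without Col0 cortex KCl replicate 3 and 2.73 without atscl26 cortex KNO3 replicate 1.

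Averaged over the other factors, KNOLLE differed by -0.17 ± 0.58 with nitrate, by 0.34 ± 0.58 with genotype and by 0.82 ± 0.58 between epidermis and cortex (adjusted p = 1.00, 0.862 and 0.905). Members with an unadjusted p under 0.05 numbered 4 for nitrate (2.33% of all models), 2 for genotype (4.84%) and 2 for cell type (6.0%). The members' medians were 0.12, 0.06 and 0.10. AT1G48360 had a nitrate average of 1.03 ± 0.47, AT3G21465 a genotype average of 1.21 ± 0.54 and AT1G75200 a cell type average of 0.71 ± 0.32. The average effects of KNOLLE ran from -0.79 to 0.45 for nitrate and from -0.27 to 0.96 for genotype when single arrays were left out. Without the 7 arrays whose markers go against their label, the genotype average of KNOLLE was -0.44 and the cell type average of AT1G29320 was 2.24. That setting leaves a lone array in each of Col0 epidermis KCl, atscl26 epidermis KNO3 and atscl26 cortex KNO3. It also set arrays aside by cell type markers, so its cell type differences are not independent of that choice. For cell type, KNOLLE differed by 0.20 without atscl26 epidermis KCl replicate 2 and by 1.44 without replicate 1 of that group, and the members' median was -0.12 and 0.33.

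The 7 lists of cell division and meristem genes were read from the same fit. None of their 168 genes passed the threshold in any comparison, in either direction, by limma. Unadjusted p was under 0.05 for between 2 of them (1.19%, in genotype in cortex under KCl and in the nitrate average, against 1.30% and 2.33% of all models) and 17 (10.1%, in the epidermal interaction, against 6.14%). In Col0 epidermis their median nitrate difference was 0.37 with 110 positive, and in Col0 cortex -0.36 with 110 negative, beside medians of -0.05 and 0.14 over all models. The marker medians given above for these comparisons, -1.09 for endodermis and -2.60 for cortex in Col0 epidermis and 1.22 for endodermis in Col0 cortex, stand beside these list medians too, and their part was not tested. In atscl26 epidermis the list median was -0.09, where the members' median was 0.46.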

How the data were processed

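The deposited values are log2 levels of 31524 transcript models on 22 one-colour arrays, made by the authors with RMA, per the submitters' processing notes, with version and settings not given in the sources used here. Arrays have no read depth, and the number of arrays per group (2 or 3) limits the precision. The labels call the replicates biological, without saying which plants or sorts they came from. Levels were used as deposited; 1 model per locus, of highest mean, entered the correlations. Group differences were fitted with limma 3.58.1 (R 4.3.3), with 1 mean per group over all 22 arrays, 14 residual degrees of freedom, and Benjamini-Hochberg adjustment over all models. Named in the text are KNOLLE, members in the gene lists, the 10 members of highest r, the loci at the rank limit, the 2 higher and 2 lower members of smallest p in a comparison, and up to 3 list genes of lowest or highest r. Members named by role, PLT1, KEULE, SNAP33, RFC4 in each array, and genes named for atscl26 epidermis KCl replicate 1 or for r without it were chosen after their values were seen. On simulated data for the nitrate effect in Col0 epidermis (31524 models), differences of 2, 4, 6 and 8 log2 units were recovered in 24%, 86%, 100% and 100% of 50 models each, with 8 false calls. The simulated noise was normal and independent between models and arrays, with no outlying or mislabelled arrays. These rates therefore need not hold for the real arrays. The members, the gene lists and the role groups were chosen with earlier results of these data known, and the correlations within groups and the account of the loci that dropped out were added after the data were seen. The alternatives were array weights, quantile normalization, a trended and robust prior, a filter on dim models, a replicate block, rank correlation, and leaving out each array, the 4 low-correlation arrays or the 7 arrays with markers of the other cell type. Promoter sequences were not analysed here. Names came from RefSeq (TAIR10.1), without coordinates.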

Additional observations from a re-analysis of the deposited data

How the results depend on the processing

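KNOLLE did not pass the threshold in any of 403 combinations of comparison and setting, and members did in 4 of them. With array weights 1 member passed in the nitrate effect of Col0 epidermis, and without the 7 arrays with markers of the other cell type 1 passed in the average cell type effect. When single arrays were left out, 0 to 4 members passed in the nitrate effect of Col0 cortex and in the genotype effect of cortex under KNO3, the 4 (2.67%) without Col0 cortex KNO3 replicate 2, where 884 (2.80%) and 660 (2.09%) of all models passed in these comparisons. The lone array then left in that group is assumed to vary like the other groups. Without the 7 arrays, a lone array was likewise left in Col0 epidermis KCl, atscl26 epidermis KNO3 and atscl26 cortex KNO3. Those 7 were set aside by cell type markers, so the cell type calls of that setting are not independent of the choice. The difference of KNOLLE took the other sign in Col0 epidermis with nitrate (-0.18 with array weights, -0.48 without the 7 arrays), in the average genotype effect (-0.44 without the 7 arrays), and, without the 4 low-correlation arrays, in atscl26 cortex with nitrate (0.31) and the average nitrate effect (0.17). The causes were not tested.

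Leaving out single arrays gave KNOLLE ranges that cross 0 for nitrate in atscl26 epidermis (-1.02 to 3.92) and atscl26 cortex (-1.23 to 0.31), for genotype in epidermis under KCl (-3.39 to 1.54), epidermis under KNO3 (-1.0 to 0.12) and cortex under KCl (-0.15 to 1.22), for the epidermal interaction (-1.90 to 3.04), and for the averages of nitrate (-0.79 to 0.45) and genotype (-0.27 to 0.96). The other 5 comparisons kept the sign of KNOLLE under every array left out.

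Choosing over all 22 arrays kept 45 of the 150 members, Spearman correlation kept 70, quantile normalization 138, and leaving out single arrays 25 to 146. Over all models, array weights gave 963 calls in atscl26 cortex with nitrate and 519 in Col0 epidermis with nitrate, where the fit as reported gave 0. Omitting the 7 arrays gave 736 calls for the average cell type effect against 1, and omitting the 4 arrays at most 37.

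The deviations of same-numbered arrays had a median r of -0.01 over 71 pairs, with a range of -0.58 to 0.35. Arrays of different number had a median of 0.00 over 140 pairs. All groups were pooled here, so whether replicate numbers pair arrays within some of them cannot be told. With the replicate number as a block, 0 members passed in any comparison, and KNOLLE differed by -2.04 in Col0 cortex and 1.07 in atscl26 epidermis with nitrate.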
